A study of Homo sapiens with 12 samples.

Results

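The experiment asked what 5 mM acetate changes in cells that have little glucose. It set the 4 libraries kept in 1 mM glucose with 5 mM acetate against the 4 kept in 1 mM glucose alone, 8 of the 12 libraries sequenced, chosen by their titles. The cells were LN229, an established human glioblastoma line, so every result comes from a single line. They had reached 80% confluence in multi-well dishes and then spent 24 h in RPMI with 10% dialyzed serum, which is depleted of small molecules. All 3 groups of the series shared this medium and time, and the other 4 libraries, at 10 mM glucose without acetate, entered the fit for its estimate of spread and give the level at high glucose. The labels do not say in which form the acetate was added, nor whether the medium without it held a matching salt.

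Acetate enters cells through monocarboxylate transporters and is activated to acetyl-CoA, by ACSS2 in the cytosol and nucleus and by ACSS1 in mitochondria. Acetyl-CoA feeds the tricarboxylic acid cycle, fatty acid and sterol synthesis and the acetylation of histones and other proteins, and glioblastoma is known for its use of acetate. Glucose shortage is known to disturb protein folding and redox balance, which are met by the heat shock factor HSF1, the antioxidant factor NRF2 (gene NFE2L2) and the amino acid response factor ATF4.

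Total counts over 22257 genes ran from 24412954 to 27183718 per library (25309508 to 26698438 at 1 mM glucose, 26780316 to 27183718 with acetate), and 14416 genes passed the filter on low counts. Levels are CPM, counts relative to library size after TMM scaling. A gene is named called where its adjusted p from edgeR's quasi-likelihood test was under 0.05, and steady where it was also called in the same direction with other scalings, with the 8 libraries alone, without each of the 8 libraries in turn and without the 2 libraries that stood apart. Those were 1 mM replicate 3 and acetate replicate 1, at −25.0 and −12.9 on the first principal component of the 8 libraries (55.0% of the variance) against −5.65 to 14.8 for the others. In both, a library's deviation from the mean fell with transcript length (Spearman −0.671 and −0.640 across 11042 genes, which are not independent), against −0.192 to 0.547 in the others. The groups separated on the second component (28.6%), where acetate libraries lay from −13.6 to −5.12 and 1 mM libraries from −0.607 to 13.1. No label states whether replicates came from different cultures, and every p therefore reflects only the variation among these libraries, which may be technical.

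With acetate, stress and signalling transcripts such as those of HSPA6, FOS and HMOX1 were lower, and transcripts such as those of IGFBP5, SEMA6B and the helicase subunit MCM4 were higher, most changes being smaller than 1.5-fold. In bulk RNA, fewer cells in a state and less RNA per cell cannot be told apart. Of 14416 genes, 1980 were called (13.7%), 958 higher with acetate (6.65%) and 1022 lower (7.09%). The counts given for gene lists below are to be read against these shares. In 1060 genes every acetate library lay above every 1 mM library (7.35%), and in 1182 every one lay below (8.2%). Of the called genes, 757 of 958 that rose and 848 of 1022 that fell had no overlap between groups. Where a called gene below is said not to overlap, this largely comes with its call. The called genes changed by a median of 1.28-fold when higher and 1.26-fold when lower, 380 of them by at least 1.5-fold, and 32 rose and 69 fell at least 2-fold. Genes that fell were the more abundant, with a median level of 38.8 CPM against 17.3 CPM for those that rose. Of the 957 steady genes (6.64%), 449 were higher (3.11%) and 508 lower (3.52%). Scaling by library totals moved the median of all tested genes by 0.04 on the log2 scale and gave 1376 genes higher and 734 lower, so 65.2% of calls were higher in place of 48.4%. The number called was 1294 without 1 mM replicate 1, 1278 without 1 mM replicate 4, 1318 without acetate replicate 3 and 1196 without acetate replicate 4, and 3728 without the 2 libraries that stood apart. Without acetate replicate 1 alone 1479 genes were called higher.

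**Figure D1:**
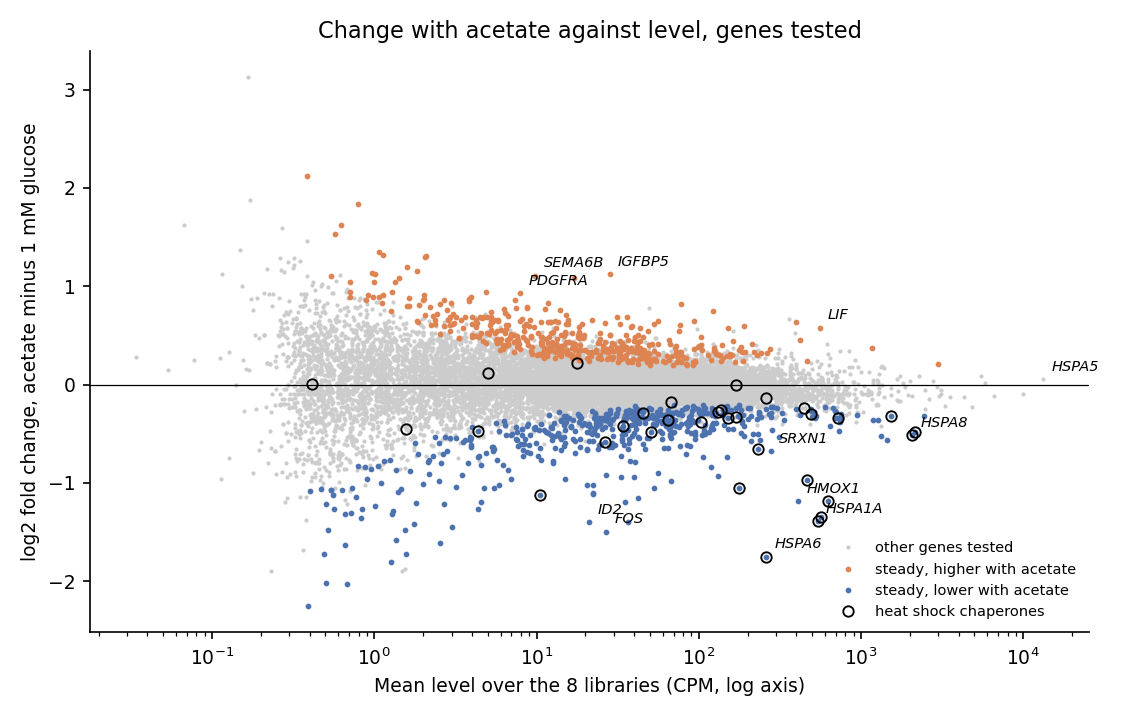
Each point is a tested gene, placed by its mean level over the 8 libraries (CPM, log axis) and by its log2 fold change, acetate minus 1 mM glucose. Steady genes are coloured, and circles mark the heat shock list, whose inducible members HSPA6 and HSPA1A are among the lowest points at their level while HSPA5 at the far right lies near 0.

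Heat shock chaperone transcripts fell with acetate. Chaperones of the HSP70, HSP40 and HSP90 families hold and refold proteins, and HSF1 induces their genes through heat shock elements, which are inverted repeats of a 5-base unit with the core GAANNTTC (N, any base). This core was sought on either strand in the window from 250 bases before to 50 bases after the start. It lay in 11 of the 28 heat shock genes with a promoter entry (39.3%) and in 526 of 11062 tested genes with an entry (4.76%). For members called in either direction it was 10 of 23 (43.5%). Of the steady genes 27 of 372 that fell had a match (7.26%) and 18 of 360 that rose (5%). As the list holds known HSF1 targets, its high share comes with its choice and does not bear on acetate. A match describes letters and no binding. The 250 bases before the start are printed for 4 genes of the list that fell, to show where the core lies, with each match in capitals, 5′ to 3′ on the gene's strand (RefSeq, GRCh38.p14).
HSPA1A, chr6:31815293-31815542, plus strand: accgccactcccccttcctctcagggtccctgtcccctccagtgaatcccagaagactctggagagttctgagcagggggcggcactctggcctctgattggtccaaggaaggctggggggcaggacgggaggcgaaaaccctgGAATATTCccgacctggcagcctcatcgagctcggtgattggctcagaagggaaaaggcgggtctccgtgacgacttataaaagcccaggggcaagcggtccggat
HSPA6, chr1:161524290-161524539, plus strand: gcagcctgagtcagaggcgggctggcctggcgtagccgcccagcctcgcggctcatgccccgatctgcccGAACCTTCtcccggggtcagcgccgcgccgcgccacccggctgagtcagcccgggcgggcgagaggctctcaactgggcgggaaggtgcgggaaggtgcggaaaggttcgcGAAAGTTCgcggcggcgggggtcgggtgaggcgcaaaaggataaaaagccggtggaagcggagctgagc
HSPA8, chr11:123062137-123062386, minus strand: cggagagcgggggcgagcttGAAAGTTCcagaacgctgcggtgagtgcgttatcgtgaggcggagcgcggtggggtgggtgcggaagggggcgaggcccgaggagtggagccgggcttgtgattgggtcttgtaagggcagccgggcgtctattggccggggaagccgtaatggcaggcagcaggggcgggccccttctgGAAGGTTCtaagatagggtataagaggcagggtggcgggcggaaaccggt
DNAJA1, chr9:33025023-33025272, plus strand: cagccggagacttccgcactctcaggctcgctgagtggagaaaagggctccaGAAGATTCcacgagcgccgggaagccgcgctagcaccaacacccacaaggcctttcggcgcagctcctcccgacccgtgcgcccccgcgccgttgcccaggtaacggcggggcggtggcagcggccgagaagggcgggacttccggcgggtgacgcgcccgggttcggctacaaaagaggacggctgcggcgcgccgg
HSPA1A held 1 match and HSPA6 and HSPA8 held 2 each. DNAJA1 held 1 in the printed stretch and 1 past the start.

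Of 32 heat shock genes tested, 23 fell, 1 rose and 8 were not called, against 7.09% called lower over all genes. Their median log2 fold change was −0.37, against 0.00 over all genes tested. HSPA6, an HSP70 gene that is nearly silent without stress, had 599, 352, 293 and 358 CPM at 1 mM glucose and 143, 124, 130.4 and 78.6 CPM with acetate. All acetate libraries lay below all 1 mM libraries, with 1 mM replicate 1 the highest of its group and acetate replicate 4 the lowest. The log2 fold change was −1.75 ± 0.20 (SE, edgeR adjusted p = 9.3e-05, n = 4 each), and the level at 10 mM glucose was 5.70 ± 0.192 CPM (SD, n = 4). The inducible HSP70 gene HSPA1A had 1065, 703, 612 and 743 CPM at 1 mM glucose and 348, 302, 319.9 and 224 CPM with acetate. The groups did not overlap (−1.39 ± 0.15, adjusted p = 7.1e-05), and at 10 mM glucose it had 25.6 ± 1.44 CPM. HSPA1A, HSPA1B (−1.34 ± 0.14), HSPA1L (−1.12 ± 0.14) and HSPA6 have near-identical stretches, and these counts do not show how shared reads were assigned.

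The co-chaperones fell beside the HSP70 genes. DNAJB1, the HSP40 partner of inducible HSP70, had 1119.5, 813, 721 and 834 CPM at 1 mM glucose and 404, 411, 406 and 314 CPM with acetate (−1.18 ± 0.12, adjusted p = 3.3e-05). BAG3, which hands HSP70 clients to autophagy, went from 239 ± 40.9 to 115 ± 15.1 CPM (−1.05 ± 0.11), and HSPH1, a nucleotide exchange factor of HSP70, from 617 ± 146 to 314 ± 29.0 CPM (−0.97 ± 0.13, SD and SE). In these 3 genes no acetate library reached the lowest 1 mM library. The abundant constitutive members fell less. HSPA8 changed by −0.51 ± 0.06, the cytosolic HSP90 genes HSP90AA1 and HSP90AB1 by −0.48 ± 0.07 and −0.32 ± 0.05, and the mitochondrial chaperone HSPD1 by −0.34 ± 0.07. Smaller members such as DNAJB4 (−0.59 ± 0.08), DNAJB6 (−0.48 ± 0.06) and the HSP90 co-chaperone CHORDC1 (−0.42 ± 0.08) were also steady. HSF1 itself had 71.6 ± 8.24 CPM without and 63.6 ± 2.89 CPM with acetate and was not called (−0.17 ± 0.08, adjusted p = 0.18), nor were the HSP70 family member HSPA4 (−0.14, adjusted p = 0.092) and the adaptor ST13 (−0.01, adjusted p = 0.93). In the list 18 genes were steady, and the number lower was between 18 and 27 under all alternatives.

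**Figure D2:**
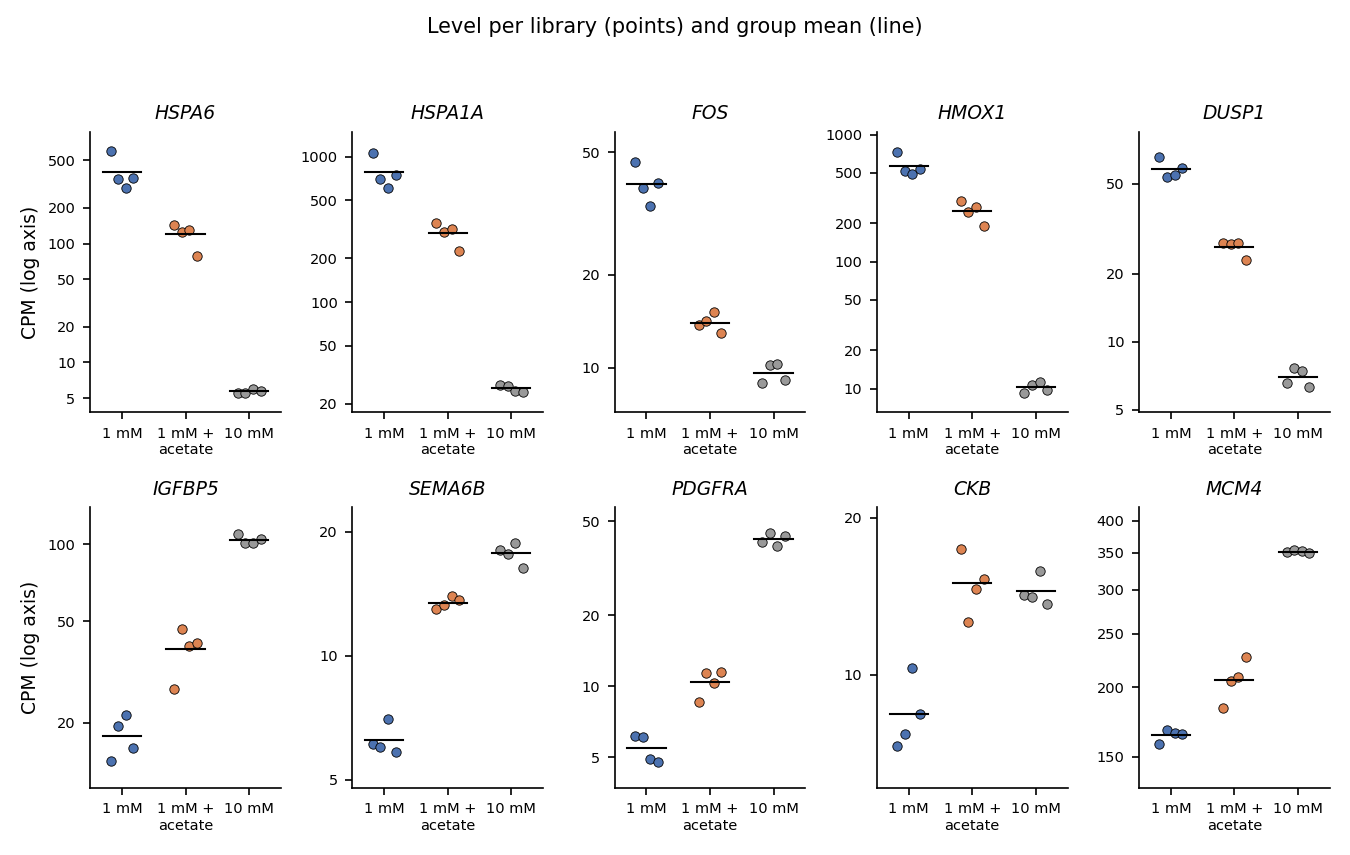
Levels of 10 genes in each library (CPM, log axis), grouped by medium, with the mean of 4 libraries as a line. The upper row holds genes that fell with acetate, such as HSPA6 and FOS, and the lower row genes that rose, such as SEMA6B from 5.83 to 7.02 CPM without acetate to 13.0 to 14.0 CPM with it. CKB with acetate covered the range at 10 mM glucose.

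Immediate early genes fell too. These encode transcription factors and regulators that are switched on within minutes of growth factor or stress signals, with FOS and JUN forming the AP-1 dimer. Of 27 tested, 19 fell (70.4%, against 7.09% over all genes), 1 rose and 7 were not called, with a median of −0.41. FOS had 46.6, 38.2, 33.4 and 39.7 CPM at 1 mM glucose and 13.7, 14.2, 15.2 and 12.9 CPM with acetate. The groups were far apart, and the acetate libraries differed little among themselves (−1.50 ± 0.09, adjusted p = 7.7e-07). FOSB, a close relative, had 34.8, 29.0, 27.0 and 29.4 CPM and 14.3, 13.5, 16.7 and 14.6 CPM (−1.02 ± 0.08). IER5, a regulator that HSF1 is known to induce, went from 89.6 ± 10.9 to 45.3 ± 3.43 CPM (−0.98 ± 0.08), and ZFP36, which speeds the decay of cytokine mRNA, from 35.3 ± 2.45 to 18.6 ± 1.57 CPM (−0.92 ± 0.07). None of these 4 genes had overlapping groups, as was so for 848 of the 1022 genes called lower. EGR1 had 256, 241, 267 and 253 CPM at 1 mM glucose and 172, 178, 191 and 177 CPM with acetate (−0.50 ± 0.05, adjusted p = 4.1e-05). JUN changed by −0.39 ± 0.06, MYC by −0.41 ± 0.06 and the low-level synaptic gene ARC by −1.20 ± 0.13. FOSL1, the AP-1 member with the highest level here, was not called (757 ± 71.2 and 701 ± 22.9 CPM, adjusted p = 0.3), nor was CYR61 (0.00, adjusted p = 0.98), a YAP-linked matrix gene. Of the list 14 genes were steady.

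Feedback regulators of MAP kinase signalling held genes that fell. Of 24 tested, 12 fell (50%, against 7.09% over all genes), 1 rose and 11 were not called (median −0.14). The 3 steady members were all dual-specificity phosphatases, which remove phosphate from MAP kinases. DUSP1 had 65.6, 53.3, 54.8 and 58.8 CPM at 1 mM glucose and 27.4, 27.1, 27.3 and 23.0 CPM with acetate (−1.15 ± 0.08, adjusted p = 2.1e-06). DUSP5 went from 103 ± 4.27 to 63.3 ± 3.41 CPM (−0.71 ± 0.06) and DUSP10 from 45.5 ± 3.13 to 36.1 ± 1.16 CPM (−0.33 ± 0.06). The sprouty SPRY2 and PHLDA1 had adjusted p = 0.58 and 0.71. With library totals in place of TMM 5 fell and 3 rose, and with the 8 libraries alone 4 fell. The number of members lower was 6 without 1 mM replicate 1, 5 without 1 mM replicate 4, 4 without acetate replicate 2, 6 without acetate replicate 3 and 5 without acetate replicate 4. HBEGF, a ligand of the EGF receptor, had 52.1, 45.8, 46.2 and 51.1 CPM and 21.5, 20.3, 22.8 and 20.5 CPM (−1.20 ± 0.07, adjusted p = 6e-07). Of the steady genes with a mean of at least 5 CPM and no overlap between groups, HBEGF was among the 10 that fell most.

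NRF2 antioxidant genes were lower with acetate, with 17 of 28 called lower (60.7%, against 7.09% over all genes) and a median of −0.31. None was higher by edgeR, limma-voom or DESeq2, and 0 at an unadjusted p under 0.05. They encode enzymes that make glutathione, reduce thioredoxin and break down heme. HMOX1, the inducible heme oxygenase, had 737, 514, 491 and 541 CPM at 1 mM glucose and 299.6, 248, 268 and 189.9 CPM with acetate. The lowest 1 mM library was 1 mM replicate 3, above every acetate library (−1.18 ± 0.14, adjusted p = 9.8e-05). At 10 mM glucose HMOX1 had 10.2 ± 0.924 CPM. OSGIN1 had 74.8, 64.6, 77.6 and 70.7 CPM and 39.0, 32.6, 36.1 and 31.2 CPM (−1.05 ± 0.08), and the sulfiredoxin SRXN1, which restores oxidized peroxiredoxins, had 363, 329.6, 327 and 349 CPM and 223, 217, 214 and 202 CPM (−0.68 ± 0.05, adjusted p = 3.2e-06). Both kept wide gaps between the groups. GCLM, the regulatory subunit of glutathione synthesis, went from 132 ± 19.4 to 79.6 ± 3.71 CPM (−0.73 ± 0.09), TXNRD1, the cytosolic thioredoxin reductase, from 840.5 ± 93.8 to 647 ± 15.5 CPM (−0.38 ± 0.07) and TRIM16 from 70.3 ± 4.40 to 48.0 ± 2.91 CPM (−0.55 ± 0.06). NFE2L2 changed by −0.24 ± 0.05 (adjusted p = 0.0035). Its inhibitor KEAP1 was called at −0.24 ± 0.07 (adjusted p = 0.039), a call that library totals in place of TMM ended, as did leaving out 1 mM replicate 1, 3 or 4 or acetate replicate 2, 3 or 4. SLC7A11, the cystine importer, ranged over 509, 633, 357 and 489 CPM without and 374, 444, 487 and 522 CPM with acetate, and these ranges overlapped (adjusted p = 0.6). With the 8 libraries alone 11 members were called lower. The antioxidant element TGACNNNGC lay in 4 of 20 promoter windows of the list (20%) and in 14.8% of all.

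**Figure D3:**
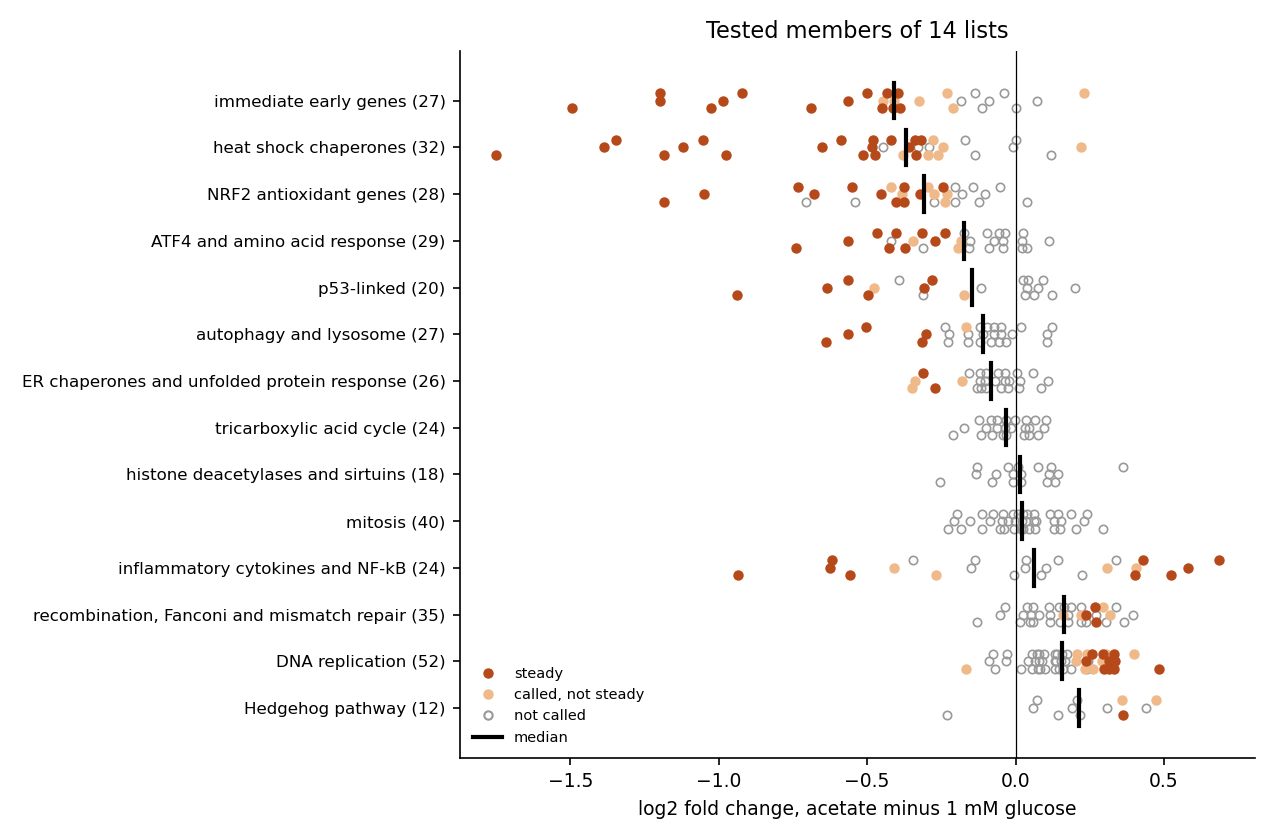
Each row is a list with its number of tested members in brackets, each point a member at its log2 fold change, acetate minus 1 mM glucose, and the bar the median. The lists at the top, from immediate early genes to endoplasmic reticulum chaperones, have medians from −0.41 to −0.08. Tricarboxylic acid cycle, deacetylase and mitosis members lie on both sides of 0 with none called, and DNA replication members lie mostly right of 0.

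The amino acid response was lower in part. ATF4 activates genes of amino acid synthesis and uptake together with stress factors. Of 29 list members 12 fell (41.4%, against 7.09% over all genes) and 17 were not called (median −0.17, 9 steady). None rose by edgeR, limma-voom or DESeq2, or at an unadjusted p under 0.05 (0 of 29). ATF3, a stress-induced repressor, had 206, 175, 176 and 184 CPM at 1 mM glucose and 116, 116, 110.1 and 102 CPM with acetate (−0.74 ± 0.07, adjusted p = 1.3e-05). SESN2, a restrainer of mTORC1, had 286, 268, 289 and 289.6 CPM and 183, 190.0, 199 and 195 CPM (−0.56 ± 0.05, adjusted p = 7.6e-06). PPP1R15A, which directs the removal of phosphate from eIF2-alpha, had 904, 786, 849.7 and 872 CPM and 632, 615, 644 and 577 CPM (−0.47 ± 0.06). In all 3 the acetate libraries lay below the 1 mM libraries. The pseudokinase TRIB3 changed by −0.43 ± 0.07 and stayed far above its level at 10 mM glucose (549 ± 34.9 against 35.6 ± 1.79 CPM). Other members at high levels were not called. ATF4 had 1028, 959, 1219.7 and 1051 CPM without and 1114, 994, 963 and 914 CPM with acetate (adjusted p = 0.44), and asparagine synthetase ASNS had 618, 630.0, 648 and 652 CPM and 651, 643, 576 and 580.0 CPM (adjusted p = 0.52). DDIT3, the death factor CHOP, had 761 ± 80.3 and 774 ± 102 CPM (adjusted p = 0.89). In the amino acid transporter list 3 of 15 fell (20%, against 7.09% over all genes). Among them was SLC3A2, the heavy chain of the CD98 transporter (−0.36 ± 0.07). The count was 5 without 1 mM replicate 3 and 11 with length and GC trends removed. In both the tRNA synthetase and the transporter list 0 members rose by edgeR, limma-voom or DESeq2 or at an unadjusted p under 0.05. The 3 of 20 synthetases that fell (15%) were not steady. The synthetase count was 1 without 1 mM replicate 1 or 4, and likewise without acetate replicate 3 or 4, and 0 with the 8 libraries alone.

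The chaperones of the endoplasmic reticulum (ER) that are most abundant here were not called. Of 26 ER and unfolded protein response genes 5 fell (19.2%, against 7.09% over all genes), and 2 were steady. The median was −0.08, and 20 of the 26 log2 fold changes were negative. The number higher was 0 by edgeR, by limma-voom or DESeq2, and at an unadjusted p under 0.05. HSPA5, the ER HSP70 known as BiP, had 13549, 12831, 12463 and 13325 CPM at 1 mM glucose and 13792, 14123, 13679 and 12705 CPM with acetate. The ranges overlapped (0.06 ± 0.05, adjusted p = 0.48). HSP90B1, the ER HSP90, had 5779 ± 407 and 5829.6 ± 206 CPM (adjusted p = 0.91). The number lower was 3 without 1 mM replicate 1, 3 or 4 and 2 without acetate replicate 2, 3 or 4. The steady members were XBP1, a transcription factor of the response (−0.31 ± 0.06), and the ER co-chaperone DNAJB9 (−0.27 ± 0.06). For HSPA5 the difference between acetate and 1 mM glucose was 0.06, and that between 10 mM glucose and acetate was −3.52.

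Genes linked to p53 and to autophagy held members that fell. In the p53-linked list 8 of 20 fell (40%, against 7.09% over all genes), with a median of −0.15 and 6 steady. In this list 0 rose by edgeR, limma-voom or DESeq2, with 1 higher at an unadjusted p under 0.05. GADD45B, a stress sensor, had 59.8, 46.4, 52.6 and 52.1 CPM and 30.1, 27.4, 28.5 and 24.2 CPM (−0.94 ± 0.09), the kinase PLK3 went from 22.5 ± 1.43 to 14.5 ± 0.744 CPM (−0.63 ± 0.07), and the cell cycle inhibitor CDKN1A had 206, 198, 232 and 217 CPM and 153, 148, 158 and 145 CPM (−0.50 ± 0.06, adjusted p = 0.00015). The secreted factor GDF15 varied within the groups and was not called (445 ± 71.2 and 359 ± 47.0 CPM, adjusted p = 0.079). In the autophagy and lysosome list 6 of 27 fell (22.2%, median −0.11, 5 steady), with the same counts for genes that rose. SQSTM1, the receptor p62, had 1870.5, 1591, 1766 and 1678 CPM and 1320.2, 1149, 1136 and 1065 CPM (−0.56 ± 0.07), and the membrane-bound tags MAP1LC3B and GABARAPL1 changed by −0.50 ± 0.06 and −0.64 ± 0.07. LAMP2, of the lysosomal membrane, and the protease CTSD were not called (adjusted p = 0.14 and 0.17).

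DNA replication genes rose by small steps. Of 52 tested, 18 rose, 1 fell and 33 were not called, against 6.65% called higher over all genes, and the median was 0.16. The members that rose belong to the helicase, its loaders, the clamp loader and the polymerases, and 10 of them were steady. MCM4, a helicase subunit, had 158, 168, 165 and 165 CPM at 1 mM glucose and 184, 205, 209 and 227 CPM with acetate. The groups did not overlap, with acetate replicate 1 the lowest of its group (0.33 ± 0.06, 1.26-fold, adjusted p = 0.0019). MCM3 went from 193 ± 15.7 to 243 ± 9.54 CPM (0.33 ± 0.06), MCM6 from 134 ± 9.21 to 164 ± 8.99 CPM (0.29 ± 0.06) and MCM10, which helps to start the helicase, from 37.7 ± 2.38 to 52.7 ± 5.75 CPM (0.48 ± 0.07). RFC3 of the clamp loader changed by 0.33 ± 0.07 and GINS1 of the active helicase by 0.31 ± 0.06. MCM7 and the ribonucleotide reductase subunit RRM2 were not called (adjusted p = 0.15 and 0.083). Without 1 mM replicate 3 both were called higher, MCM7 by 0.23 (adjusted p = 0.01) and RRM2 by 0.21 (adjusted p = 0.029). The number of members higher was 11 without 1 mM replicate 1 and 34 without the 2 libraries that stood apart.

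E2F factors are known to drive these genes. A match to TTTCGCGC, TTTGGCGC or TTTCCCGC on either strand lay in 19 of 44 promoter windows of the replication list (43.2%) and in 4.52% of all tested genes with an entry. For members called in either direction it was 8 of 15 (53.3%). Of the steady genes 21 of 360 that rose had a match (5.83%) and 13 of 372 that fell (3.49%). As the list holds known E2F targets, its high share comes with its choice and does not bear on acetate. The 250 bases before the start are printed for a gene with several overlapping matches and for a gene with a single match, with matches in capitals (RefSeq, GRCh38.p14).
MCM6, chr2:135876444-135876693, minus strand: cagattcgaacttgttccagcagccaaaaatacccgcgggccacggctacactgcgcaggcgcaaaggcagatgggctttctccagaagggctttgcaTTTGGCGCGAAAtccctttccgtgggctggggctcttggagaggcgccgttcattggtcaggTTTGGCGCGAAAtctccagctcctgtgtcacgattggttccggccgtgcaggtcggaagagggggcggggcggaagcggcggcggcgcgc
RFC3, chr13:33817899-33818148, plus strand: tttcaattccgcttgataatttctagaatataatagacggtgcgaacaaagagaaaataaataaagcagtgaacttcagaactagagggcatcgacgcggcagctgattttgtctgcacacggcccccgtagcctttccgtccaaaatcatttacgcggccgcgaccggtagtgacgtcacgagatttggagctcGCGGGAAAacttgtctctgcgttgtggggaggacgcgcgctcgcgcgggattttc
MCM6 held 4 matches in overlapping pairs, so each run of capitals counts as 2. E2F2, an activating E2F, had 6.88, 8.54, 9.24 and 8.89 CPM at 1 mM glucose and 11.5, 14.1, 14.8 and 16.7 CPM with acetate (0.77 ± 0.11, adjusted p = 0.00046). The repressor E2F8 (0.35 ± 0.07) and the E2F partner TFDP1 (0.23 ± 0.05) were also steady, and no acetate library of these 3 genes fell to the level of a 1 mM library. In the list of G1 cyclins, kinases, inhibitors and E2F factors 5 of 25 rose (20%, against 6.65% over all genes). In it 2 fell (8%, against 7.09%), and the median was 0.16. The cyclin CCND1 and the kinase CDK4 were not called (adjusted p = 0.083 and 0.97). The number higher was 8 without 1 mM replicate 3 or acetate replicate 1. In the recombination, Fanconi and mismatch repair list 0 fell by edgeR, limma-voom or DESeq2 or at an unadjusted p under 0.05. In that list 7 of 35 rose (20%, median 0.16). Of these, FANCD2 (0.27 ± 0.06), MSH6 (0.24 ± 0.06) and PALB2 (0.27 ± 0.06) were steady. The number higher was 14 without 1 mM replicate 2 and 15 without acetate replicate 1, 4 without 1 mM replicate 4 or acetate replicate 3, and 3 without 1 mM replicate 1 or acetate replicate 2 or 4.

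**Figure D4:**
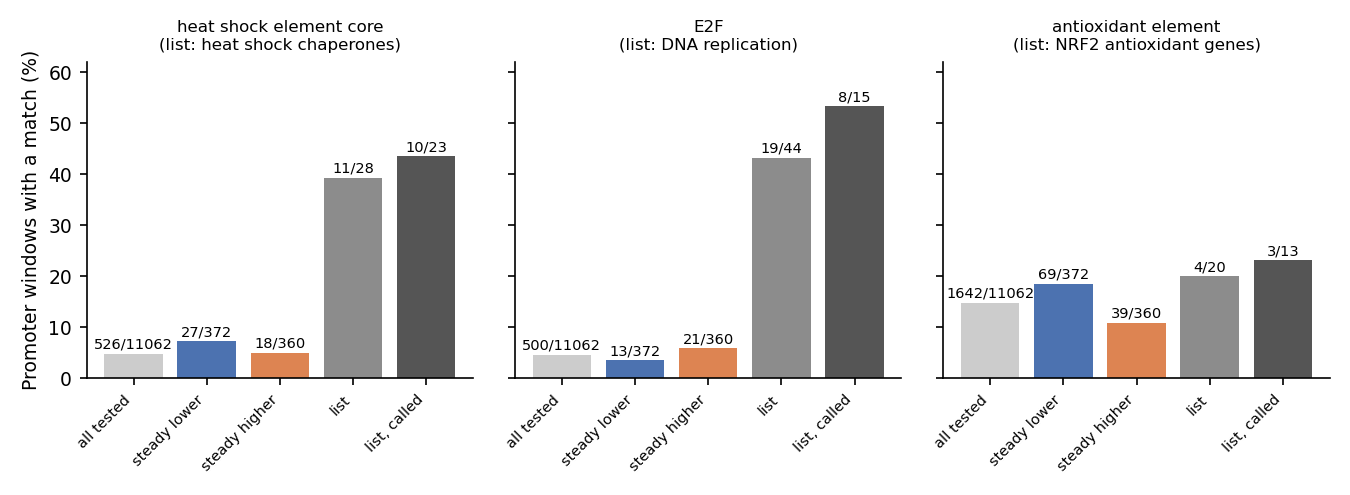
Bars give the share of promoter windows of 300 bases with at least 1 match (%, from 0), for all tested genes, steady genes that fell or rose, a list and its called members, with counts above the bars. The heat shock core reached 39.3% in its list and E2F 43.2%, against 4.76% and 4.52% of all genes, while the antioxidant element was at 20% against 14.8%. In steady genes that fell and rose the heat shock core was at 7.26% and 5%, and E2F at 3.49% and 5.83%.

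The mitosis genes were tested beside the replication genes. None of 40 was called by edgeR, with a median of 0.02. At an unadjusted p under 0.05, 2 were higher and 4 lower, DESeq2 called 1 higher and 2 lower and limma-voom 0, and edgeR called 4 higher without acetate replicate 1 and 6 without the 2 libraries that stood apart. The proliferation marker MKI67 had 309, 368, 235 and 286 CPM at 1 mM glucose and 236, 358, 398 and 425 CPM with acetate. The range within each group was wide, with the lowest value of each in the library that stood apart (0.24 ± 0.16, adjusted p = 0.34). CENPF, of the kinetochore, had the same pattern (316, 427, 266 and 317 CPM and 288, 387, 447 and 504 CPM, adjusted p = 0.25). Without acetate replicate 1 both were called higher, MKI67 by 0.39 (adjusted p = 0.027) and CENPF by 0.43 (adjusted p = 0.037). Both transcripts are long. With length and GC trends removed the changes were 0.16 for MKI67 (adjusted p = 0.06) and 0.20 for CENPF (adjusted p = 0.078), and 2 members of the list were called higher and 2 lower.

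ACSS2, which activates acetate, was lower with acetate. In the main fit the lists of acetyl-CoA and lipid metabolism were called, in either direction, about as often as genes in general. Called were 4 of 28, 3 of 20 and 4 of 25 members, against 13.7% over all genes. The 4 called cholesterol genes were all lower (16%), against 7.09% called lower over all genes. Of 28 genes of acetate uptake, activation and pyruvate entry 2 rose and 2 fell (median 0.01), and 1 rose without 1 mM replicate 1 or acetate replicate 2, 3 or 4 and 4 without acetate replicate 1. ACSS2 had 43.4, 42.6, 46.6 and 44.7 CPM at 1 mM glucose and 34.2, 36.1, 35.6 and 33.2 CPM with acetate. Every acetate library lay below every 1 mM library (−0.35 ± 0.05, 1.27-fold lower, adjusted p = 0.0005). The mitochondrial ACSS1 had 44.4 ± 1.65 and 41.6 ± 1.60 CPM (adjusted p = 0.25), and the ATP citrate lyase ACLY 204 ± 7.47 and 209.7 ± 16.9 CPM (adjusted p = 0.69). Neither was called. BRP44L, a subunit of the mitochondrial pyruvate carrier now named MPC1, fell (−0.37 ± 0.08), and PDK3, which shuts the pyruvate dehydrogenase complex down, rose (0.35 ± 0.08). Of 20 fatty acid genes 2 rose and 1 fell (median 0.05, with 5 higher without acetate replicate 1 and 1 without 1 mM replicate 1 or 4, and likewise without acetate replicate 2), ELOVL2, an elongase of polyunsaturated fatty acids, being the steady one (0.36 ± 0.06). FASN, the fatty acid synthase, had 527, 503, 457 and 465 CPM without and 336, 511, 582 and 592 CPM with acetate and was not called (adjusted p = 0.84). Without acetate replicate 1 its change was 0.20 (adjusted p = 0.049). Of 25 cholesterol genes 4 fell (median −0.07; 2 without 1 mM replicate 1 or 4, and likewise without acetate replicate 2 or 3), and 0 rose by edgeR, limma-voom or DESeq2, with 2 higher at an unadjusted p under 0.05. In that list 2 rose and 6 fell without acetate replicate 1, 2 rose and 8 fell without the 2 libraries that stood apart, and 2 rose and 10 fell with length and GC trends removed. INSIG1, which retains the sterol sensor in the ER, had 41.2, 37.7, 37.8 and 40.6 CPM and 28.4, 26.9, 27.5 and 27.7 CPM (−0.51 ± 0.05, adjusted p = 5.4e-05). HMGCS1, an early enzyme of sterol synthesis, was not called (−0.18 ± 0.07, adjusted p = 0.1).

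Glucose handling genes moved both ways. Of 22 glycolysis genes 2 rose (9.09%, against 6.65% over all genes) and 6 fell (27.3%, against 7.09%), with a median of −0.06. Without 1 mM replicate 1 the number that fell was 3. The glucose transporters fell, SLC2A1 from 379, 350.0, 412 and 372 CPM to 306, 288, 297 and 288 CPM (−0.36 ± 0.06) and SLC2A3 from 64.2, 56.9, 48.2 and 58.6 CPM to 37.2, 37.6, 36.6 and 33.4 CPM (−0.65 ± 0.08, adjusted p = 0.00015). In neither did the groups overlap. PFKM, the muscle phosphofructokinase, rose by 0.25 ± 0.05 and PFKFB4, which sets the level of a phosphofructokinase activator, by 0.36 ± 0.06. The abundant GAPDH, ENO1 and LDHA were not called (adjusted p = 0.46, 0.14 and 0.93). In the hexosamine pathway, which makes the sugar donor for glycosylation, 3 of 9 fell (33.3%). GFPT2, an isoform of its first enzyme, had 45.1, 40.0, 37.6 and 42.1 CPM and 23.8, 26.4, 27.1 and 22.3 CPM (−0.73 ± 0.07), and UAP1 changed by −0.34 ± 0.05. GFPT1 was not called (379 ± 42.1 and 335 ± 19.2 CPM, adjusted p = 0.13). TXNIP, a MondoA target that reports glucose entry, was at 6.63 ± 0.652 and 5.51 ± 0.437 CPM, a call at adjusted p = 0.0495 that library totals or the loss of 1 mM replicate 2 or 4 or any acetate library ended, and at 121 ± 4.54 CPM at 10 mM glucose. The related ARRDC4 was not called (adjusted p = 0.73). None of 24 tricarboxylic acid cycle genes was called by edgeR or limma-voom, while DESeq2 called 2 lower and 4 were lower at an unadjusted p under 0.05. EdgeR called 2 lower without 1 mM replicate 2, 1 without 1 mM replicate 3 or acetate replicate 1, and 3 with length and GC trends removed.

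Genes that write and erase acetyl marks were tested as 2 lists. Of 14 histone acetyltransferases 1 was called, KAT2B, a nuclear acetyltransferase, with 58.7, 70.2, 60.8 and 62.2 CPM at 1 mM glucose and 76.8, 80.7, 83.0 and 89.2 CPM with acetate (0.39 ± 0.06, adjusted p = 0.0012). None of 18 histone deacetylases and sirtuins was called by edgeR (median 0.01), while limma-voom and DESeq2 each called 1 lower and 1 each way had an unadjusted p under 0.05. EdgeR called 3 higher and 1 lower without 1 mM replicate 3, 1 lower without 1 mM replicate 2 or acetate replicate 1, and 2 each way without the 2 libraries that stood apart or with length and GC trends removed. HDAC1 was at 136 ± 7.43 and 150.4 ± 6.41 CPM (adjusted p = 0.085). Among histone genes the linker histone H1F0 rose (0.30 ± 0.04), and 2 low-level H2B genes fell, HIST1H2BK (−0.74 ± 0.11) and HIST2H2BE (−0.80 ± 0.14). ZMYND8, a reader of acetylated histones, had 57.4, 63.0, 50.2 and 53.6 CPM and 83.8, 105, 109 and 97.0 CPM (0.82 ± 0.08, adjusted p = 4.3e-05). Of the steady genes with a mean of at least 5 CPM and no overlap between groups, ZMYND8 was among the 10 that rose most.

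Some of the 10 genes that rose most follow, taken only from steady genes with a mean of at least 5 CPM and no overlap between groups. The separation of their groups was thus a condition of the choice, and genes at lower levels, such as VWF, rose more. IGFBP5, an IGF-binding protein, had 14.2, 19.5, 21.5 and 15.9 CPM at 1 mM glucose and 27.2, 46.6, 40.0 and 41.0 CPM with acetate. Acetate replicate 1 was the lowest of its group and still above all 1 mM libraries (1.12 ± 0.15, adjusted p = 0.00024). SEMA6B, a membrane-bound axon guidance cue, had 6.11, 6.00, 7.02 and 5.83 CPM and 13.0, 13.3, 14.0 and 13.6 CPM (1.11 ± 0.08, 2.16-fold, adjusted p = 1.7e-06). SERPINA5, a secreted protease inhibitor, had 10.1, 10.3, 13.0 and 9.87 CPM and 22.2, 25.0, 23.8 and 21.1 CPM (1.09 ± 0.08, adjusted p = 4.1e-06). PDGFRA, a receptor tyrosine kinase often amplified in glioma, had 6.15, 6.08, 4.91 and 4.77 CPM and 8.61, 11.3, 10.3 and 11.5 CPM (0.93 ± 0.11, adjusted p = 0.0001). It stood below its level at 10 mM glucose, 42.1 ± 2.42 CPM. The adhesion protein CNTN1 changed by 0.86 ± 0.13, CDK18 by 0.78 ± 0.09, the metalloreductase STEAP2 by 0.78 ± 0.07 and the lipid transporter ABCA8 by 0.78 ± 0.13. CKB, the brain creatine kinase that buffers ATP, had 7.29, 7.68, 10.3 and 8.40 CPM and 17.4, 12.6, 14.6 and 15.2 CPM (0.83 ± 0.11, adjusted p = 0.00035). In the receptor tyrosine kinase list 5 of 23 rose (21.7%, against 6.65% over all genes, median 0.10), of which PDGFRA was steady. None fell by edgeR or limma-voom, while DESeq2 called 2 lower and 3 were lower at an unadjusted p under 0.05. The number higher was 2 without 1 mM replicate 1 or acetate replicate 2, 3 or 4, and 1 without 1 mM replicate 4. The HGF receptor MET was not called (adjusted p = 0.46). In the Hedgehog list 3 of 12 rose (25%, against 6.65% over all genes, median 0.21), and the signal transducer SMO was steady (0.36 ± 0.06). The number higher in that list was 5 without acetate replicate 1 and 1 without 1 mM replicate 4 or acetate replicate 2, 3 or 4.

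The list of collagens, laminins and integrins had 6 of 37 higher (16.2%, against 6.65% over all genes), with a median of 0.16. The number lower was 0 by edgeR, limma-voom or DESeq2, and 1 at an unadjusted p under 0.05. The number higher was 16 without acetate replicate 1 and 3 without 1 mM replicate 4 or acetate replicate 3. Steady genes were COL16A1 (0.46 ± 0.05), ITGA4 (0.34 ± 0.08) and ITGA7 (0.47 ± 0.10). The abundant FN1 and SPARC were not called (adjusted p = 0.72 and 0.071). The axon guidance list had 3 of 35 higher (8.57%, against 6.65% over all genes) and 6 lower (17.1%, against 7.09%). The number higher was 5 without 1 mM replicate 2 and 9 without acetate replicate 1. The receptor PLXNA2 had 23.3, 20.6, 15.5 and 19.1 CPM and 7.35, 10.3, 11.5 and 11.4 CPM (−0.96 ± 0.14), the netrin receptor UNC5B changed by −1.02 ± 0.19, and SEMA3B rose (0.36 ± 0.07). In the cadherin and contactin list 5 of 24 rose (20.8%, against 6.65%) and 2 fell (8.33%, against 7.09%). The number higher was 3 without 1 mM replicate 1 or acetate replicate 2. The steady ones were CNTN1, CNTNAP1 (0.44 ± 0.07) and PCDH1 (0.40 ± 0.07).

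Inflammatory genes were called in both directions. Of 24 tested, 7 rose (29.2%, against 6.65% over all genes) and 6 fell (25%, against 7.09%), with a median of 0.06. Among the steady genes that rose were secreted cytokines, an adhesion receptor and BIRC3, an inhibitor of apoptosis (0.40 ± 0.09). LIF, a cytokine of the interleukin-6 family, had 393, 442, 505 and 444 CPM at 1 mM glucose and 579.5, 671, 700.2 and 716 CPM with acetate (0.58 ± 0.08, adjusted p = 0.0005). IL1B had 3.18, 4.35, 4.76 and 3.83 CPM and 5.88, 6.49, 7.57 and 6.01 CPM (0.68 ± 0.12), the chemokine CCL2 changed by 0.52 ± 0.13 and the leukocyte ligand ICAM1 by 0.43 ± 0.09. Among the steady genes that fell, SOCS3, which dampens JAK and STAT signalling, had 48.7, 39.1, 40.0 and 46.3 CPM and 23.5, 21.9, 24.1 and 21.5 CPM (−0.94 ± 0.07, adjusted p = 4.1e-06). NFKBIZ changed by −0.63 ± 0.09, the cyclooxygenase PTGS2 by −0.56 ± 0.12 and the interleukin-33 receptor IL1RL1 by −0.62 ± 0.12. The groups of CCL2 and PTGS2 overlapped. The interleukin-6 gene IL6 and the NF-kB inhibitor NFKBIA were not called (adjusted p = 0.69 and 0.81), nor was NFKB1 (90.5 ± 3.02 and 92.8 ± 7.32 CPM, adjusted p = 0.72).

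Some genes were lower with acetate than at either glucose level. The 9 plotted here were picked after their values were seen, so the pattern is a description. ID2, an inhibitor of differentiation factors that BMP signals induce, had 34.7, 29.9, 26.6 and 31.3 CPM at 1 mM glucose, 12.8, 10.8, 11.7 and 11.2 CPM with acetate and 15.7, 15.6, 14.6 and 16.5 CPM at 10 mM. All 4 acetate libraries lay below the other 8, with log2 fold changes of −1.40 ± 0.08 for acetate minus 1 mM and 0.42 for 10 mM minus acetate (adjusted p = 6e-07 and 0.00054). In the list of ID and BMP pathway genes, 8 of 21 fell (38.1%), 2 rose (9.52%) and 11 were not called for acetate minus 1 mM. The median of that list was −0.03, and of its steady members 2 fell and 1 rose. The number lower was between 3 and 9 under all alternatives, so ID2 does not stand for the list. ACSS2 had 55.5, 53.8, 56.9 and 55.1 CPM at 10 mM glucose, where both groups at 1 mM glucose lay lower (0.67 for 10 mM minus acetate, adjusted p = 3.1e-08). The same 2 differences were −0.94 and 0.93 for SOCS3, −0.51 and 0.48 for INSIG1, −0.69 and 0.75 for ID4, and −0.73 and 0.24 for GFPT2. Among chaperones they were −0.65 and 0.65 for DNAJA1, −0.51 and 0.44 for HSPA8 and −0.48 and 0.40 for DNAJB6, whereas HSPA6 had −1.75 and −4.39. Each pair of values shares the acetate libraries. Over all genes 9049 were called between 10 mM glucose and acetate (62.8%).

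**Figure D5:**
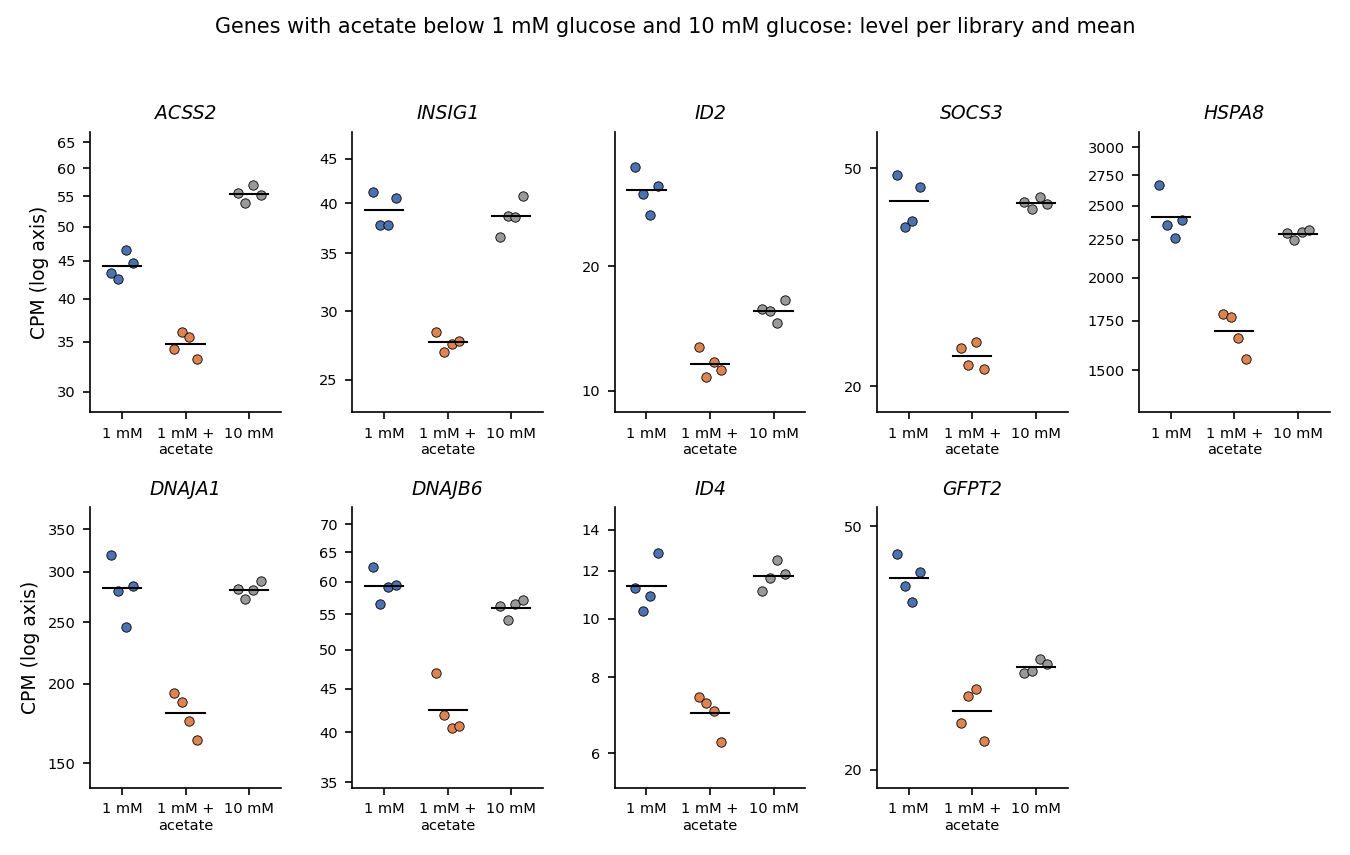
Levels of 9 genes in each library (CPM, log axis), grouped by medium, with the mean of 4 libraries as a line. Acetate libraries are the lowest in every panel, and for SOCS3 and HSPA8 the 10 mM libraries lie within or near the 1 mM range while for ID2 and GFPT2 they lie between.

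The labelled cell type was checked against marker lists. Of 14 astrocyte and glial progenitor markers 11 were tested, and CD44 (24589 to 27699 raw counts at 1 mM glucose), SOX10 and NES were abundant. GFAP had 18 to 34 raw counts at 1 mM glucose and 23 to 39 with acetate, and AQP4 at most 5, so these defining astrocyte markers were near 0. Summed over the list, levels were 6783 to 8259.6 CPM at 1 mM glucose and 6533 to 7035 CPM with acetate. This sum mainly follows VIM, which had the most counts of the list (114199 to 153179 raw counts at 1 mM glucose). In the list 2 members rose and 3 fell. The risers were S100B (0.48 ± 0.10) and SOX2 (0.30 ± 0.07). SOX9, a glial lineage factor at 12 to 18 raw counts at 1 mM glucose and 8 in each acetate library, fell (−1.06 ± 0.23). VIM, the filament vimentin, was called lower (−0.23 ± 0.07) but was not steady, the call ending with library totals and when any of 1 mM replicates 1, 3 and 4 or acetate replicates 2, 3 and 4 was left out. OLIG2, an oligodendrocyte lineage factor, fell (25.2, 22.0, 25.4 and 27.1 CPM and 16.6, 15.9, 15.3 and 15.5 CPM, −0.66 ± 0.08, adjusted p = 9.5e-05). Of 10 neuron markers 6 were tested. TUBB3 had 5198 to 8208 raw counts at 1 mM glucose, SYT1 2450 to 3097, MAP2 1168 to 1719 and GAD1 541 to 695, while STMN2 was at 0 and ELAVL4 at 1 at most. SNAP25, of the vesicle fusion machinery, rose (0.30 ± 0.06), and the list summed to 444 to 499 CPM at 1 mM glucose and 389 to 408 CPM with acetate. All 8 fibroblast and pericyte markers were tested, summing to 43.3 to 50.7 CPM and 51.4 to 55.1 CPM. The matrix proteoglycan LUM rose (0.61 ± 0.08), and DCN, of the same family, was called higher (0.60 ± 0.18) but was not steady, the call ending with the 8 libraries alone, or without 1 mM replicate 1, 2 or 4 or either of acetate replicates 1 and 2. Blood and endothelial markers had 2 of 10 tested, summing to 54.2 to 64.8 CPM and 62.8 to 69.8 CPM, with CD68 at 1315 to 1652 raw counts at 1 mM glucose. CD3E, HBB and HBA1 were at 0 in all 8 libraries, which allows up to 3 counts in each library, counting error only. VWF rose from 0.302 ± 0.0907 to 0.94 ± 0.239 CPM. The part of these markers in the other results was not tested.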

How the data were processed

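Total RNA, per the labels, was sequenced from 12 LN229 samples, 4 per medium, grouped by their titles. The authors deposited raw counts per RefSeq transcript on hg19, per the submitters' processing notes and the files themselves. The sources used here do not name the aligner, counter or strand setting, so overlapping, antisense and near-identical genes are uncertain. Each gene was represented by the transcript the files mark for it (20895 of 22257 genes) or, without a mark, by the one with the highest total (1362 genes). The members and gene lists were chosen with earlier results of these data known.

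Counts were fitted in R 4.3.3 with edgeR 4.0.16 (filterByExpr, TMM, quasi-likelihood F test) over all 12 libraries, with Benjamini-Hochberg adjustment over 14416 genes and a threshold of 0.05. The biological coefficient of variation was 8.51%. Log2 fold changes are acetate minus 1 mM glucose unless stated, with edgeR's default prior count, and SE is the log2 fold change over the square root of F. A prior count of 2 was used only for the log levels behind the principal components, the length and GC trends and the correlations between replicates. The scripts were tested on simulated data. Alternatives were DESeq2 1.42.0 size factors and Wald test, limma-voom (limma 3.58.1), library totals, no filter, a mean of at least 5 CPM, the 8 libraries alone, each library left out, both libraries that stood apart left out, other transcript choices, the replicate number as a block, and removal of trends in transcript length and GC content from GENCODE release 29 (spline with 5 degrees of freedom). The counts of called members in lists under these alternatives were added after seeing the data.

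Named genes followed a rule: the 10 highest and 10 lowest steady genes with a mean of at least 5 CPM and no overlap between groups, up to 4 steady members with the smallest p and 2 uncalled members with the highest level per list, 14 fixed genes, and the 5 steady genes of at least 100 CPM with the smallest p. ARC, BIRC3, CCL2, CHORDC1, DCN, DNAJA1, DNAJB4, DNAJB6, EGR1, GAD1, GCLM, GFAP, GINS1, HSP90AA1, HSP90AB1, HSPA1L, HSPA8, HSPD1, HSPH1, ICAM1, IL1RL1, IL6, JUN, MAP2, NES, NFKBIA, PTGS2, RFC3, TRIB3, TXNRD1, UNC5B and VIM were chosen after their values were seen. For the 10 highest and 10 lowest genes, groups that do not overlap and steady calls were conditions of being named, so neither is a finding about them. RefSeq promoter windows (GRCh38.p14) were matched to 11062 of 14416 tested genes, 9903 by symbol and 1159 by an older symbol. Gene coordinates are not given because that build differs from hg19. Some genes are not reported here.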

Additional observations from a re-analysis of the deposited data

Results flagged for a closer look

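In the genes printed here, 18 of 350 groups of 4 libraries (5.14%) had a library whose gap to its nearest neighbour, as a share of the group's range, was above Dixon's critical value for groups of this size. Chance gives about 1 in 20. Acetate replicate 1 was low for ACLY (gap share 0.943, 184 against 217 CPM), CNTNAP1 (0.84, 43.2 against 51.9 CPM) and MET (0.87, 221 against 276 CPM), and high for MT2A (0.954, 455 against 353 CPM) and LUM (0.844, 24.7 against 22.5 CPM). Acetate replicate 4 was low for CYR61 (0.916, 363 against 394 CPM), DNAJB1 (0.925, 314 against 404 CPM) and DUSP1 (0.933, 23.0 against 27.1 CPM), and high for RFC3 (0.946, 94.2 against 82.1 CPM). Acetate replicate 3 was high for EPAS1 (0.87, 15.5 against 13.5 CPM).

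At 1 mM glucose, replicate 3 was low for GCLM (0.834, 103 against 138 CPM) and HSP90B1 (0.897, 5171 against 5933 CPM). It was high for SERPINA5 (0.86, 13.0 against 10.3 CPM), SOX10 (0.898, 613 against 502 CPM) and TFDP1 (0.8997, 92.5 against 82.8 CPM). Replicate 2 was high for ABCA8 (0.846, 6.45 against 5.26 CPM) and low for SESN2 (0.841, 268 against 286 CPM). Replicate 1 was high for IGFBP3 (0.894, 79.9 against 78.6 CPM), a group whose whole range was narrow.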

How the results depend on the processing

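The numbers of genes higher and lower moved by over 1.5 times in 4 settings other than single libraries. They were 503 and 553 with the 8 libraries alone, 1882 and 1846 without both libraries that stood apart, 1755 and 2148 with length and GC trends removed without a block, and 1603 and 1935 with those trends removed and the replicate block. Requiring a mean of at least 5 CPM left 153 genes changed at least 1.5-fold, since fewer genes of low level were tested. Without single libraries the ranges were 569 to 1479 higher, 627 to 1477 lower and 302 to 464 changed at least 1.5-fold. The cause was not tested. The replicate block gave 870 higher, 910 lower and 360 at least 1.5-fold. Replicates with the same number do not deviate together: across 11136 genes their deviations from the group means correlated at −0.499, 0.329, −0.598 and 0.0202 for numbers 1 to 4, and 1 mM replicate 3 with acetate replicate 1 at 0.786, so the numbers were not taken as pairs.

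Over 175 printed genes, no alternative reversed a direction among called genes. In 3525 gene-by-setting values the status, called or not called, was unchanged, in 89 an uncalled gene passed and in 38 a call was lost. Most called genes printed here were named for being steady. In the settings that define steady their calls could not be lost, so these counts do not measure how stable calls are in general. The losses were in KEAP1 and TXNIP, with library totals, no filter, the 8 libraries alone and several single libraries left out (TXNIP also by limma-voom and without both libraries that stood apart), in VIM and DCN, with the 8 libraries alone, the replicate block (adjusted p = 0.0618 and 0.076) and several single libraries left out, VIM also with library totals and DCN also with length and GC trends removed and the replicate block, and in MSH6 with length and GC trends removed and the replicate block (adjusted p = 0.0564). Leaving out 1 library let some uncalled genes pass: CCND1, CENPF, ENO1, FASN, GDF15, MKI67, NES, SPARC, TUBB3 and VEGFA without acetate replicate 1, GFPT1, HDAC1, HMGCS1, HSPA4, MAP2, MCM7, RRM2, SOX10, SPARC and VEGFA without 1 mM replicate 3, and GDF15 and TUBB3 without 1 mM replicate 2. Depth was similar in all libraries, and genes of few counts have wide errors.

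Counts of called members moved by over 1.5 times in these lists as well. With the 8 libraries alone 11 DNA replication genes, 3 repair genes, 3 of the G1 and E2F list, 3 collagens and integrins, 1 receptor tyrosine kinase, 1 Hedgehog gene, 3 cadherins and contactins and 1 energy buffer gene were higher, and 2 cholesterol, 2 glycolysis, 2 polyamine and 2 ER genes were lower. With library totals 13 repair genes, 10 of the G1 and E2F list, 11 collagens and integrins, 5 Hedgehog and 5 axon guidance genes were higher, and 2 cholesterol and 3 ER genes were lower. With length and GC trends removed 29 replication genes, 13 repair genes, 12 of the G1 and E2F list, 13 collagens and integrins, 7 axon guidance, 6 acetyl-CoA and 5 fatty acid genes were higher, and 12 autophagy, 10 axon guidance, 8 ER, 7 hypoxia, 6 hexosamine and 6 synthetase genes were lower.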

Other observations

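The cytosolic ribosomal protein genes had a median log2 fold change of −0.11 over 79 tested, and edgeR and limma-voom called none of them. DESeq2 called 1 lower and 5 were lower at an unadjusted p under 0.05. Their transcripts are short, and 1 mM replicate 3 and acetate replicate 1 were the highest libraries of their groups for RPS6 (1979, 1841, 2287 and 2018 CPM at 1 mM glucose and 2191, 1914, 1737 and 1694 CPM with acetate). EdgeR called 4 lower without 1 mM replicate 2, 11 without acetate replicate 1, 13 without both libraries that stood apart and 4 with length and GC trends removed. In the polyamine list, which holds the growth-linked synthesis enzymes and the oxidases, 4 of 11 genes were lower with acetate (2 without 1 mM replicate 4 or acetate replicate 2, 3 or 4), and 0 were higher by edgeR, limma-voom or DESeq2, with 1 higher at an unadjusted p under 0.05. ODC1, the first enzyme, had 312, 295, 307 and 307 CPM and 275, 266, 253 and 249 CPM (−0.23 ± 0.05, SE, edgeR adjusted p = 0.0081), and the spermine oxidase SMOX 80.0, 68.9, 83.5 and 78.6 CPM and 56.6, 55.6, 55.1 and 52.6 CPM (−0.50 ± 0.06). Neither pair of groups overlapped. In the hypoxia list 1 of 19 was higher (5.26%, against 6.65% over all genes) and 3 were lower (15.8%, against 7.09%). The number lower was 6 without 1 mM replicate 3 and 7 without acetate replicate 1. NDRG1 (−0.49 ± 0.07) and EPAS1, the factor HIF-2 alpha (−0.57 ± 0.12), were steady, and HIF1A and VEGFA were not called (adjusted p = 0.21 and 0.058).

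In the insulin and IGF list 1 of 19 rose and 2 fell, against 13.7% called over all genes, IGFBP5 being the one that rose (3 rose without acetate replicate 1). IGFBP3 had 79.9, 78.6, 78.4 and 78.4 CPM at 1 mM glucose and 54.3, 61.4, 57.9 and 46.5 CPM with acetate (−0.52 ± 0.07, adjusted p = 0.00036) and the receptor substrate IRS2 changed by −0.23 ± 0.05. SPRR2D, a small proline-rich protein of epithelia, had 59.6, 44.4, 56.1 and 52.0 CPM and 24.0, 21.5, 20.2 and 14.7 CPM (−1.40 ± 0.13). By the naming rule, which takes steady genes of at least 5 CPM without overlap, it was among the 10 that fell most. Reads shared with its close relatives cannot be told from its own. In the list of energy buffer and AMPK genes 5 of 16 were higher and 1 lower, and CKB was the steady one, the number higher being 1 to 3 without 1 mM replicate 1 or 4, and likewise without acetate replicate 2, 3 or 4. Among interferon-stimulated genes IFI44 was steady (0.34 ± 0.07) and among circadian genes BHLHE40 (−0.24 ± 0.05). Metallothioneins and zinc exporters had 0 of 7 called by edgeR, limma-voom or DESeq2 and 0 at an unadjusted p under 0.05, with MT2A at 399 ± 75.0 and 377 ± 52.3 CPM (SD, n = 4).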
